A study of Mus musculus with 10 samples.

Results

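The very long chain fatty acid elongases are the products of the Elovl genes, and 6 of them, Elovl1, Elovl2, Elovl4, Elovl5, Elovl6 and Elovl7, were followed here through the cerebellum and cerebral cortex of Snx14-KO and control mice. They were chosen by name from the 55536 genes with a mouse identifier in the count tables. All 6 passed the filter on low counts in every comparison. The other mouse elongase gene, Elovl3, had counts of 0 in 8 of the 10 libraries and of at most 2 in the others, and it was not analysed further.

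The 10 libraries came from both regions of 5 mice that were 1 year old. Controls 1 and 2 were heterozygous for Snx14 (Het), control 3 was wild type (WT), and KO 1 and KO 2 carried in both copies a 1-bp frameshift deletion made with Cas9, on a C57BL/6J background. The deletion is present in the whole body from the germ line. The labels describe each tissue as a mix of cells, so the values do not separate cell types. Each mouse gave 1 cerebellum library and 1 cortex library, which makes 3 control and 2 KO libraries per region, and the labels give no sequencing batch or date.

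An elongase carries out the first and rate-limiting step of the fatty acid elongation cycle in the endoplasmic reticulum, in which a fatty acyl-CoA is condensed with malonyl-CoA. A ketoreductase, a dehydratase and an enoyl reductase complete the cycle, and the enzymes differ in the acyl chains they accept. In the brain the products enter myelin sphingolipids, neuronal and photoreceptor membranes and the polyunsaturated phospholipids of synapses. Mutations of the human ELOVL4 and ELOVL5 genes are known causes of dominant spinocerebellar ataxias, disorders in which the cerebellum degenerates. SNX14 is a sorting nexin anchored in the endoplasmic reticulum, where it contacts lipid droplets.

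Levels are CPM, the count of a gene relative to the library's total count, scaled by TMM over all 10 libraries, given with the SD, and differences are log2 fold changes with their standard error (SE) from the quasi-likelihood test of edgeR with Benjamini-Hochberg adjustment over all genes tested. Calls needed an adjusted p under 0.05 together with a log2 fold change past 0.5 in either direction. In the comparison of the KO effects between the regions only the adjusted p was needed. Library totals lay between 16088310 and 22975355 gene counts, and the members had between 160 counts (Elovl7, cortex of control 3) and 2571 counts (Elovl5). Snx14 itself fell in KO cerebellum, from 52.0 CPM ± 18.5 (n = 3) to 16.5 CPM ± 1.38 (n = 2), with an edgeR log2 fold change of -1.66 (SE 0.256, adjusted p = 0.0140). The control mean and SD pool both genotypes. In cerebellum the Het controls were at 42.75 and 39.85 CPM and the WT control at 73.24 CPM. Their cortex values were 34.32 and 34.94 CPM for Het and 50.80 CPM for WT. In the cortex Snx14 had 40.0 CPM ± 9.35 in controls and 15.4 CPM ± 0.894 in KO mice, with the KO libraries below all controls, and the edgeR adjusted p was 0.754. Without the cortex of control 2 its log2 fold change was -1.45 (edgeR adjusted p = 0.00207), and with all libraries DESeq2 gave an adjusted p of 2.1e-06. Over the 10 alternatives the adjusted p ranged from 4.5e-16 to 0.999, with 3 calls. Markers fitted the labelled regions, with granule cell markers at 4248 to 5022 CPM in the cerebellum libraries and 406 to 456 CPM in the cortex libraries. The cortex library of control 2 stood apart: its summed markers were 9055 CPM for oligodendrocytes and 4491 CPM for striatum, against 4899 to 4990 CPM and 1840 to 2025 CPM in the other 2 controls, and its cortical excitatory neuron markers were at 3244 CPM against 5401 to 5733 CPM. Values without it are given for Snx14 in cortex, for Elovl1 and Elovl7 in KO cortex and between the regions, and for some counts over all genes. The correlations and the values of related enzymes include it. In these bulk samples, fewer cells of a type and less RNA per cell cannot be told apart.

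Elovl5 was the most abundant elongase transcript in both regions and in both genotypes. Levels of different genes were compared only per length, as TMM-scaled CPM per kilobase of exon. In control cerebellum the order of these levels was Elovl5 at 26.2 ± 0.577, Elovl4 at 16.6 ± 0.461, Elovl6 at 12.3 ± 0.671, Elovl2 at 9.67 ± 1.02, Elovl7 at 5.45 ± 0.678 and Elovl1 at 5.12 ± 0.578 CPM per kilobase (SD, n = 3). Only the last neighbours in that order, Elovl7 and Elovl1, overlapped between libraries. In control cortex Elovl5 (19.4 ± 2.36), Elovl4 (15.8 ± 0.724) and Elovl6 (7.49 ± 0.189) again came first, followed by Elovl1 (5.23 ± 1.64), Elovl7 (3.31 ± 1.06) and Elovl2 (3.25 ± 0.158 CPM per kilobase). There the libraries of Elovl1 and Elovl7, and those of Elovl7 and Elovl2, overlapped.

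The summed level of the 6 genes was 76.0, 74.3 and 75.6 CPM per kilobase in the cerebellum of controls 1 to 3 and 72.0 and 77.6 in that of KO 1 and KO 2. It was 53.3, 59.2 and 50.9 in the cortex of the controls and 52.8 and 55.0 in that of the KO mice. The cerebellum sums were thus above all cortex sums, and the KO values lay on either side of the controls in cerebellum and within their range in cortex. Elovl2 made up 12.8% ± 1.21 of the sum in control cerebellum and 5.99% ± 0.604 in control cortex, and Elovl4 made up 22.0% ± 0.728 and 29.2% ± 3.54. Elovl6 made up 16.3% ± 0.842 in control cerebellum and 12.4% ± 0.466 in KO cerebellum, and in the KO cerebellum Elovl2 (10.2 ± 0.275 CPM per kilobase) stood above Elovl6 (9.27 ± 0.145), in the reverse of the order in controls.

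**Figure D1:**
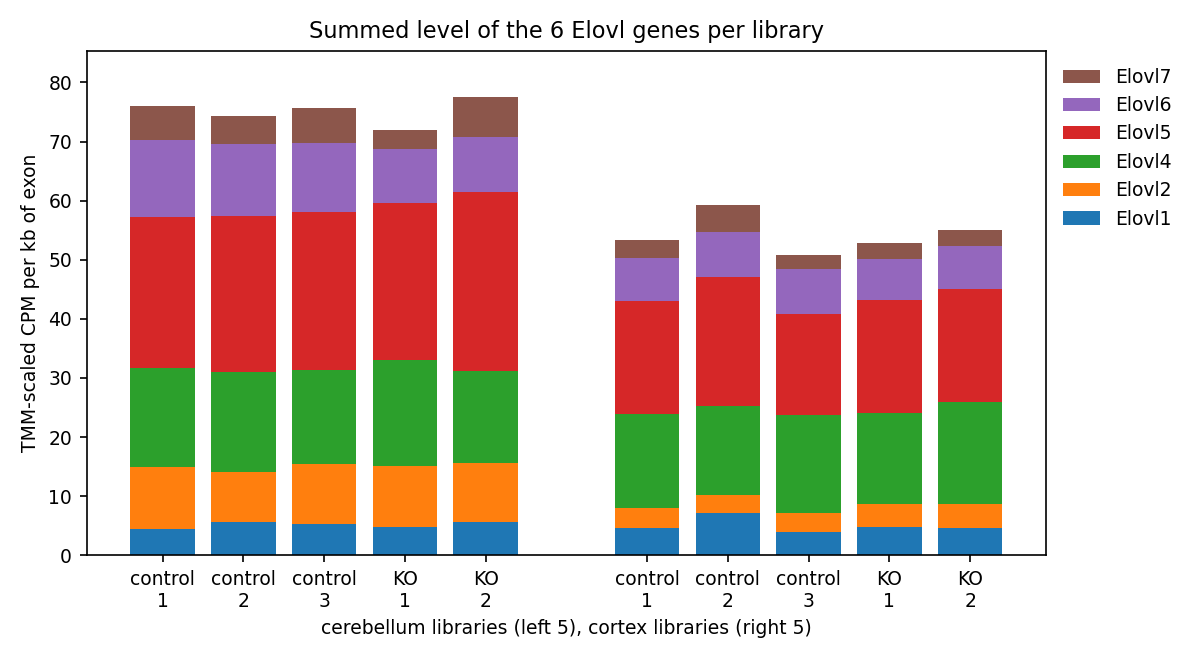
Stacked level of the 6 Elovl genes in each library, as TMM-scaled CPM per kilobase of exon. The cerebellum bars reach 72.0 to 77.6 and the cortex bars 50.9 to 59.2, and Elovl5 is the largest segment in each.

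To ask how the elongases differ between the regions, the cerebellum and cortex of the 3 control mice were compared. Elovl2, Elovl6 and Elovl7 were higher in cerebellum, Elovl5 was higher by an amount below the fold bound, and Elovl1 and Elovl4 did not pass the test. Of the 6 members, 3 were called, all higher in cerebellum. The call rate over all 19416 genes tested was 40.5%, and 19.1% were called higher, so differences between these regions were common. At the adjusted p alone 4 members were higher, against 26.5% of all genes.

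Elovl2 lengthens polyunsaturated fatty acids towards the precursor of docosahexaenoic acid. It had 41.1, 33.7 and 40.3 CPM in the cerebellum of controls 1 to 3 and 13.6, 12.5 and 12.6 CPM in their cortex. The regions did not overlap, as for 31.5% of all genes in that direction, and cerebellum was above cortex within each mouse by 3.02-fold, 2.71-fold and 3.20-fold. By edgeR the log2 difference was 1.57 (SE 0.109, adjusted p = 5.26e-06). The summed level of 10 astrocyte and Bergmann glia markers, of which 7 were called higher and 1 lower in cerebellum, was 5881 to 6394 CPM in cerebellum and 3718 to 4956 CPM in cortex of the controls. Also called higher in cerebellum were 9 of 10 Purkinje cell, 7 of 8 granule cell, 8 of 8 choroid plexus and 6 of 8 meningeal fibroblast markers. Called lower were 8 of 8 microglia, 8 of 9 cortical excitatory neuron, 10 of 10 striatum, 2 of 10 oligodendrocyte and 1 of 8 endothelial markers. The part of any of these cells in the Elovl2 result was not tested.

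Elovl6 elongates palmitate to stearate, a step in the supply of common membrane fatty acids. Its levels were 83.5, 78.5 and 75.0 CPM in control cerebellum and 46.8, 48.9 and 48.8 CPM in control cortex. The regions were separate in each mouse, with ratios of 1.79, 1.60 and 1.54. The log2 difference was 0.71 (SE 0.0740, edgeR adjusted p = 6.37e-05).

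Elovl7, which acts on saturated long chain acyl-CoAs, had 23.1, 18.8 and 23.8 CPM in control cerebellum and 11.98, 18.0 and 9.82 CPM in control cortex. Both regions of control 2 were near each other, with a ratio of 1.04 against 1.93 and 2.42 in controls 1 and 3. The log2 difference was 0.71 (SE 0.211, edgeR adjusted p = 0.0196). This call depended on single libraries. It was lost without the cerebellum of control 1 (adjusted p = 0.0627) or control 3 (0.0678) and without the cortex of control 1 (0.0704) or control 3 (0.0583). Without the cortex of control 2 the log2 difference was 0.97 (edgeR adjusted p = 0.000202). The 8 choroid plexus markers, led by Ttr and Enpp2, summed to 4469, 1582 and 4983 CPM in the cerebellum of controls 1 to 3 and to 255 to 297 CPM in their cortex, with 8 of 8 called higher in cerebellum. Control 2 was thus the lowest of the cerebellum controls both in these markers and in Elovl7. The part of choroid plexus tissue in the result was not tested.

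Elovl5, which elongates polyunsaturated fatty acids, had 89.9, 93.2 and 93.7 CPM in control cerebellum and 67.4, 77.0 and 60.4 CPM in control cortex. The regions did not overlap, and the log2 difference of 0.43 (SE 0.0948, edgeR adjusted p = 0.00477) stayed under the fold bound of 0.5. Its adjusted p was under 0.05 in all 10 alternative analyses.

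Elovl4 makes the longest fatty acids of neurons, retina and skin, both saturated and polyunsaturated. It had 51.0, 51.0 and 48.6 CPM in control cerebellum and 48.0, 45.5 and 49.9 CPM in control cortex, and the regions overlapped. The log2 difference was 0.07 with a 95% confidence interval (CI) from -0.10 to 0.24 (edgeR adjusted p = 0.485).

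Elovl1 elongates saturated and monounsaturated chains for the sphingolipids of myelin and other membranes. It had 12.3, 15.4 and 14.2 CPM in control cerebellum and 12.5, 19.3 and 11.0 CPM in control cortex, where control 2 was the high library. The log2 difference was -0.04 (CI -0.51 to 0.44, edgeR adjusted p = 0.889), and it was 0.22 without the cortex of control 2 (adjusted p = 0.212).

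**Figure D2:**
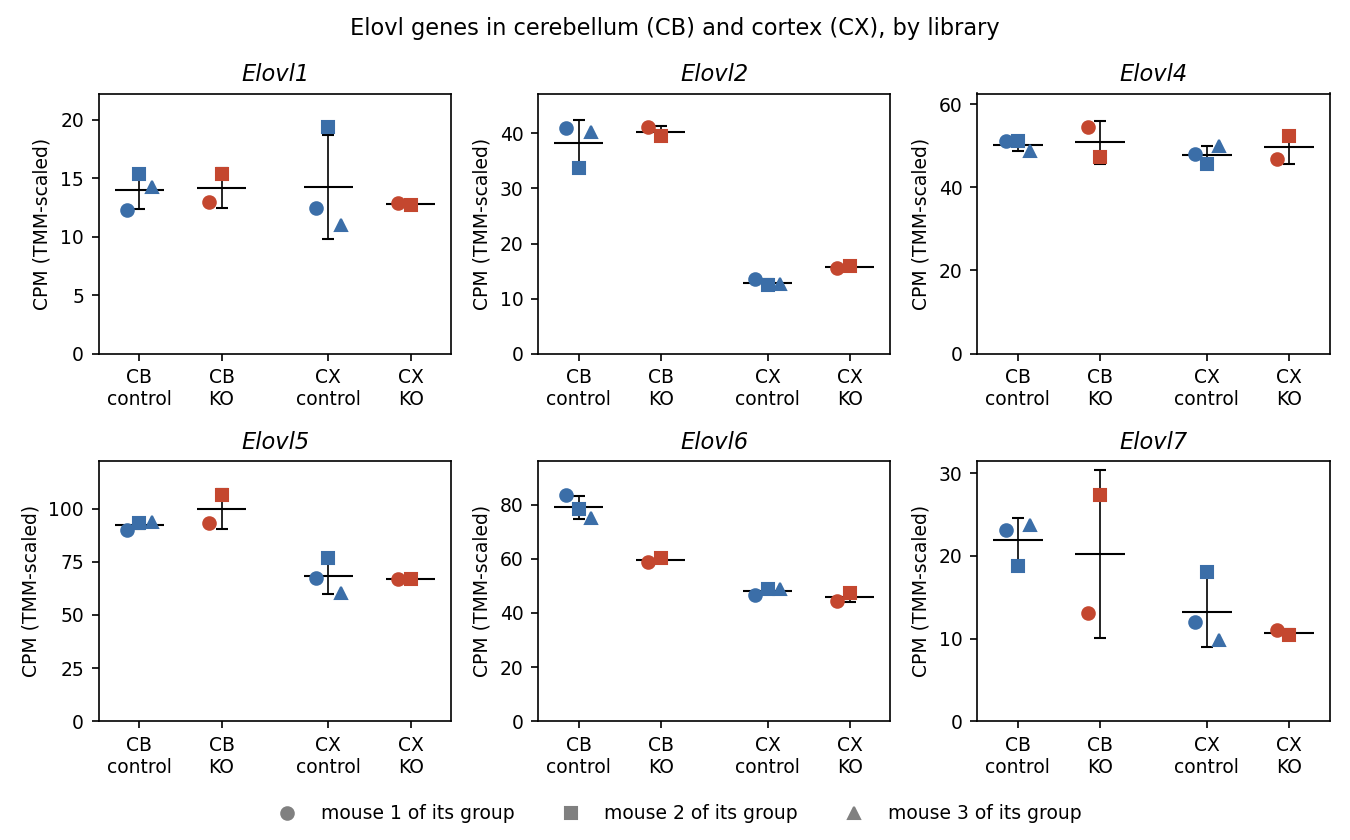
TMM-scaled CPM of each Elovl gene by library in cerebellum (CB) and cortex (CX), controls in blue and KO in red. Each axis starts at 0, the black line is the group mean, the bar is ± 1 SD, and the marker shape gives the mouse. Elovl2, Elovl5 and Elovl6 separate the regions. The 2 KO cerebellum points of Elovl6 (58.9 and 60.2 CPM) lie below the 3 controls (75.0 to 83.5 CPM). The 2 KO cerebellum points of Elovl7 (13.1 and 27.4 CPM) lie on either side of its controls.

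The sequences before the start sites of the 3 genes called between the regions are shown, because these genes shared a direction and their promoters can be set side by side. Each run holds the 200 bases from 250 to 51 before the RefSeq start on GRCm38.p6, written 5′ to 3′ on the strand of the gene, and the first annotated start was used for Elovl2. Capitals mark GC boxes (GGGCGG on either strand), the only one of the motifs searched that was found in these runs.

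Elovl6, chr3:129532136-129532335, plus strand: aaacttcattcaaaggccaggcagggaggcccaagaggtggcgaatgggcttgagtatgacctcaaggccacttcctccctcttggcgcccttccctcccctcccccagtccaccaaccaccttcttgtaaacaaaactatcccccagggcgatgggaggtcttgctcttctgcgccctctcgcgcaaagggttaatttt

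Elovl2, chr13:41220454-41220653, minus strand: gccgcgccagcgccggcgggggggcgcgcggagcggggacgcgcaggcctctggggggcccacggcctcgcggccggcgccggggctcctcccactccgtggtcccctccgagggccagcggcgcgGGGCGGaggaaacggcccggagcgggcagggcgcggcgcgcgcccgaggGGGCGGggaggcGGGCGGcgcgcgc

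Elovl7, chr13:108214154-108214353, plus strand: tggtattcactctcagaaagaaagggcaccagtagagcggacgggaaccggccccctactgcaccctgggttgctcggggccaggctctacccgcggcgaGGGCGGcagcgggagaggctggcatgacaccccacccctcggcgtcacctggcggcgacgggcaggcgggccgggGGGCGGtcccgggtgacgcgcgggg

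The motifs were searched on both strands in windows of 300 bases, from 250 before to 50 after the RefSeq start, and all 6 members had such a window. The GC box was present in 4 of them (Elovl1, Elovl2, Elovl4 and Elovl7), against 35.7% of the 32851 windows of the table. The E-box CACGTG was in the windows of Elovl4 and Elovl5 (7.15% of all windows), the CCAAT box CCAAT in those of Elovl1, Elovl4 and Elovl5 (37.4%), and the cAMP response element TGACGTCA in that of Elovl5 (1.79%). A form of the sterol regulatory element, TCACNCCAC, and the direct repeat bound by liver X receptors (DR4) were in none of the 6 and in 1.24% and 0.0152% of all windows. In the Elovl1 window a GC box and the CCAAT box overlapped by 2 bases. None of the searched letters was in the Elovl6 window. The G and C content was 55.7% for Elovl6, 57.7% for Elovl5, 70.7% for Elovl1, 71.0% for Elovl4, 74.0% for Elovl7 and 84.7% for Elovl2, against a median of 52.7% over all windows.

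To ask whether loss of Snx14 alters the elongases in the region that degenerates in these mice, KO and control cerebella were compared. Elovl6 was lower in KO cerebellum, at 0.751 of the control level (CI 0.673 to 0.838), and the other 5 members did not pass the test. None of the 6 was called, against 1.55% of the 19447 genes tested (302 genes), since the difference of Elovl6 was below the fold bound.

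Elovl6 had 83.5, 78.5 and 75.0 CPM in controls 1 to 3 and 58.9 and 60.2 CPM in KO 1 and KO 2. Both KO libraries lay below all controls, as for 14.6% of all genes in that direction, and the WT control was the lowest of the 3 controls. The log2 fold change was -0.41 (SE 0.0693, CI -0.57 to -0.26) with an edgeR adjusted p of 0.0204. At the adjusted p alone 2.14% of all genes passed (417 genes), and 1.41% passed with a lower level in KO. The sign was the same in all 10 alternative analyses, with log2 fold changes from -0.45 to -0.37 and an adjusted p under 0.05 in 5 of them. The adjusted p rose to 0.110 without control 1, 0.0586 without control 3, 0.130 without KO 1 and 0.0964 without KO 2.

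Markers of Purkinje cells, the output neurons of the cerebellar cortex, were also lower in both KO cerebella. The 10 markers, led by Itpr1 and Car8 and none of them at 0, summed to 11242, 9412 and 11245 CPM in the cerebellum of controls 1 to 3 and to 5284 and 5085 CPM in KO 1 and KO 2, and 9 of the 10 were called lower. Microglia markers moved the other way, from 184 to 207 CPM in controls to 265 and 274 CPM in KO mice, with 2 of 8 called higher. Astrocyte and Bergmann glia markers (5881 to 6394 CPM in controls, 6552 to 6871 CPM in KO mice, 3 of 10 called higher and 1 lower), meningeal fibroblast markers (651 to 1127 and 1376 to 1766 CPM, 1 of 8 called higher), endothelial markers (181 to 224 and 242 to 245 CPM, 1 of 8 called higher) and the striatum list (446 to 488 and 508 to 539 CPM, none called) were also separate. Granule cell markers summed to 4306 to 5022 CPM in controls and 4248 to 4883 CPM in KO mice, with none of 8 called. Within the controls the orders differed: Elovl6 was lowest in control 3 (75.0 CPM), and the Purkinje sum was lowest in control 2. In cortex this list, led there by Itpr1 with Pcp4 in controls and with Gad1 in KO mice, was also lower in KO mice. Elovl6 overlapped between the groups there. With each region's mean subtracted, Elovl6 had r = 0.936 with the Purkinje sum and r = -0.903 with the microglia sum. The part of these cells in the Elovl6 result was not tested.

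The 3 genes most like Elovl6 over the 10 libraries, after each region's mean had been subtracted, were Creg1 (r = 0.982), Thy1 (r = 0.977) and Ubl4a (r = 0.975) among 10929 genes. Thy1 encodes a surface glycoprotein of neurons and lymphocytes. These values describe 10 libraries that come from 5 mice and share the difference of KO from control, so they carry no test.

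Elovl5, Elovl4, Elovl2 and Elovl1 had overlapping groups in KO and control cerebellum. Elovl5 had 93.3 and 106.4 CPM in KO mice against 89.9 to 93.7 CPM in controls (log2 fold change 0.11, CI -0.06 to 0.27, edgeR adjusted p = 0.611). Elovl4 had 54.4 and 47.2 CPM against 48.6 to 51.0 CPM (0.01, CI -0.18 to 0.19). Elovl2 had 41.1 and 39.6 CPM against 33.7 to 41.1 CPM (0.07, CI -0.16 to 0.29). Elovl1 had 12.9 and 15.4 CPM against 12.3 to 15.4 CPM (0.02, CI -0.32 to 0.35). All 4 intervals lay within the fold bound of 0.5 in either direction.

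Elovl7 was the member whose KO cerebella differed most from each other, with 13.1 CPM in KO 1 and 27.4 CPM in KO 2 against 18.8 to 23.8 CPM in controls. The log2 fold change was -0.11 (CI -0.71 to 0.50, edgeR adjusted p = 0.920). It was 0.32 without KO 1 and -0.76 without KO 2, with adjusted p-values of 0.514 and 0.115. The choroid plexus markers summed to 219 CPM in the cerebellum of KO 1 and to 4301 CPM in that of KO 2, against 1582 to 4983 CPM in controls, so KO 1 was the lowest of the 5 cerebella in both measures. The part of this tissue in the Elovl7 values was not tested.

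**Figure D3:**
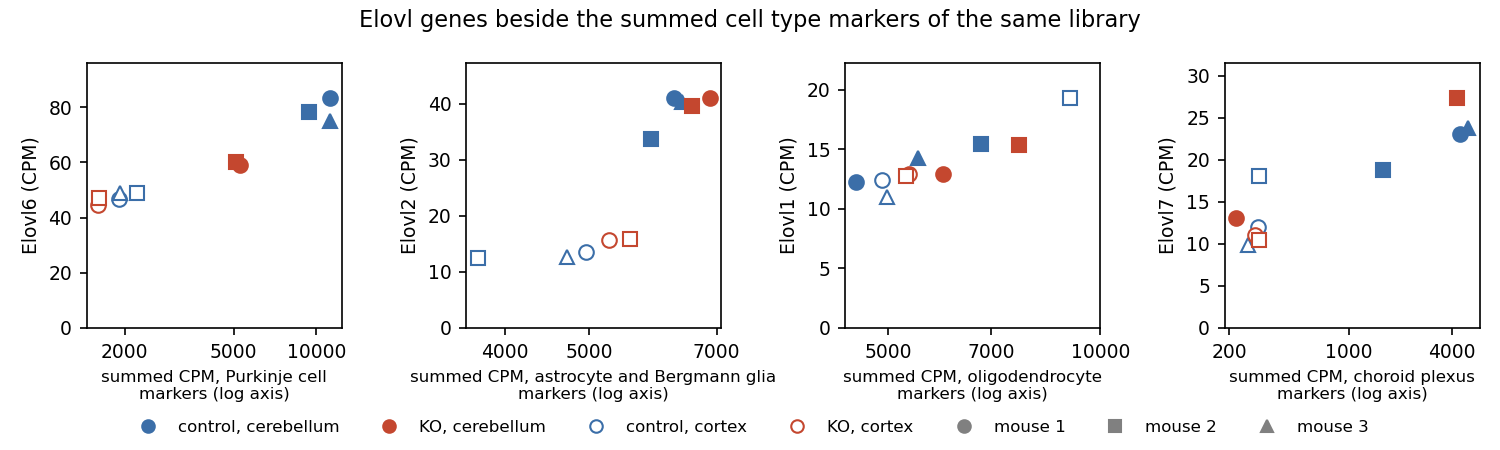
CPM of 4 Elovl genes against the summed CPM of a marker list in the same library, on a log x axis, with filled points for cerebellum, open points for cortex, blue for control and red for KO. The 4 pairs are a selection among all genes and lists and carry no test. Over the 10 libraries, with each region's mean subtracted, the plotted pairs had r = 0.936 (Elovl6), 0.79 (Elovl2), 0.916 (Elovl1) and 0.756 (Elovl7). Other pairs were of similar size. Among them were Elovl6 with microglia (r = -0.903) and Elovl1 with cortical excitatory neuron markers (r = -0.875), both smaller in size than the plotted pair. Elovl2 with meningeal fibroblast (r = 0.813) and Elovl7 with granule cell markers (r = -0.802) were larger in size. In the Purkinje panel the 2 KO cerebella lie at 5085 to 5284 CPM of markers and 58.9 to 60.2 CPM of Elovl6, below the 3 controls on both axes, and in the choroid plexus panel the KO 1 cerebellum (219 CPM of markers) lies to the left of the cortex libraries (255 to 297 CPM).

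The same question was asked of the cortex. There none of the 6 members was called, and neither was any other of the 19202 genes tested (0.00% by edgeR, with 1139 genes at an unadjusted p under 0.05 and 49 called by DESeq2). Elovl2 was the member with the smallest p. It had 13.6, 12.5 and 12.6 CPM in controls and 15.6 and 15.9 CPM in KO mice, so that both KO libraries were above all controls, as for 10.5% of all genes. The log2 fold change was 0.30 (SE 0.129, CI 0.0049 to 0.60) with an edgeR unadjusted p of 0.0472 and an adjusted p of 0.831, and it lay between 0.28 and 0.35 in the 10 alternatives.

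The KO and control cortex libraries were also separate in 5 of the 10 marker lists. Astrocyte markers summed to 4956, 3718 and 4714 CPM in controls and to 5262 and 5563 CPM in KO mice, and meningeal fibroblast markers to 454, 161 and 251 CPM and to 517 and 654 CPM. Endothelial markers summed to 138 to 232 CPM in controls and 238 to 273 CPM in KO mice. Lower in KO cortex were the striatum markers, at 609 to 1148 CPM against 1840 to 4491 CPM, and the Purkinje cell list, at 1604 to 1615 CPM against 1911 to 2223 CPM. No gene of these lists was called in this comparison. Their part in the Elovl2 values was not tested. The gene most like Elovl2 over the 10 region-centred libraries was Aldoc (r = 0.968), itself one of the astrocyte markers, followed by Phka1 (r = 0.952) and Rbms2 (r = 0.949).

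The remaining members had overlapping groups in cortex. Elovl6 had 44.5 and 47.2 CPM in KO mice against 46.8 to 48.9 CPM in controls (log2 fold change -0.06, CI -0.26 to 0.14, edgeR adjusted p = 0.937). Elovl5 had 67.0 and 67.1 CPM against 60.4 to 77.0 CPM (-0.01, CI -0.28 to 0.26), and Elovl4 had 46.8 and 52.4 CPM against 45.5 to 49.9 CPM (0.07, CI -0.15 to 0.28). Elovl7 had 11.0 and 10.4 CPM against 9.82 to 18.0 CPM (-0.30, CI -0.89 to 0.29), and Elovl1 had 12.9 and 12.7 CPM against 11.0 to 19.3 CPM (-0.14, CI -0.71 to 0.42). These last estimates rested on control 2, since without its cortex library they were -0.01 for Elovl7 and 0.15 for Elovl1.

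Elovl1, Elovl5 and Elovl7 were each highest among the cortex libraries in control 2, the library with the most oligodendrocyte marker RNA. Over the 5 cerebella the oligodendrocyte markers summed to 4504, 6769 and 5516 CPM in controls and to 5993 and 7678 CPM in KO mice, with none of 10 called. Elovl1 followed the same order of high and low libraries within the controls, with its lowest value in control 1 and its highest in control 2. Over all 5 cerebella the orders differed, since KO 1 (12.95 CPM) was below control 3 (14.23 CPM) in Elovl1 and above it in the markers. Elovl7 did not follow that order and was lowest among the control cerebella in control 2 (18.8 CPM). Elovl5 was lowest in control 1 (89.9 CPM) and highest in KO 2 (106.4 CPM), as were these markers. Its controls 2 and 3 were close, at 93.2 and 93.7 CPM, in the reverse of the marker order. With each region's mean subtracted, the oligodendrocyte sum had r = 0.916 with Elovl1, 0.84 with Elovl5 and 0.499 with Elovl7. The cortical excitatory neuron sum had r = -0.875, -0.728 and -0.631 with the same genes. The part of these cells in the values was not tested. Over the region-centred libraries Elovl1 and Elovl5 had a correlation of r = 0.863, while Elovl4 and Elovl7 had r = -0.841. The genes most like Elovl1 were Gatm (r = 0.979), Prrg1 (r = 0.972) and Rnf5 (r = 0.969), and those most like Elovl5 were Clic4 (r = 0.982), Lims2 (r = 0.967) and Plekhg3 (r = 0.948). Those most like Elovl4 were Phf20 (r = 0.974), Fbxw7 (r = 0.938) and Vsnl1 (r = 0.938), and those most like Elovl7 were Fam166a and Thumpd3 (both r = 0.960) and Dcc (r = 0.922). All of these correlations describe 10 libraries of 5 mice, among which control 2 cortex is far from the rest.

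The KO effects of the 2 regions were then compared directly, as an interaction in 1 fit of all 10 libraries. None of the 6 members passed, against 0.102% of 20614 genes (21 genes at an adjusted p under 0.05). Elovl6 came nearest, with a difference of the log2 fold changes of -0.33 (SE 0.102, CI -0.56 to -0.11, edgeR adjusted p = 0.329), and it had an adjusted p of 0.270 with the mouse as a block. Its ratio of cerebellum to cortex within a mouse was 1.79, 1.60 and 1.54 in the controls and 1.32 and 1.28 in the KO mice. A KO effect on Elovl6 that differs between the regions was thus not shown over all genes. With the mouse as a block 128 genes passed, none of them a member.

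**Figure D4:**
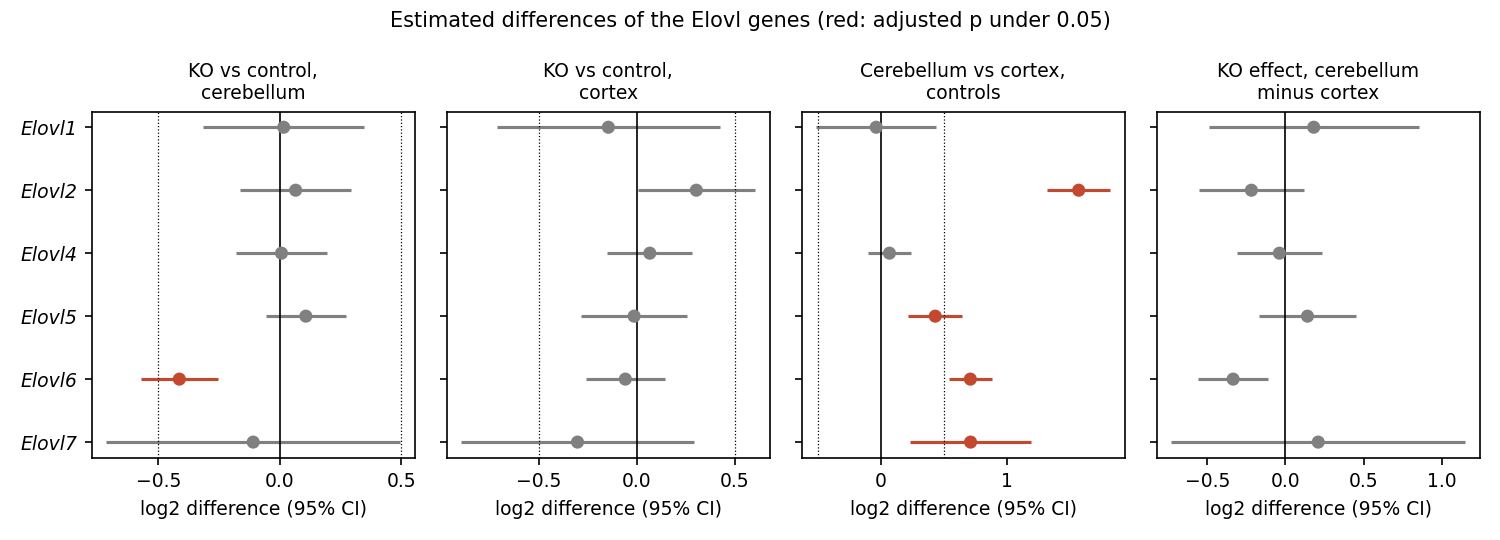
Log2 differences of the 6 Elovl genes with their 95% confidence intervals from edgeR, in KO against control cerebellum, KO against control cortex, control cerebellum against control cortex, and the KO effect in cerebellum minus that in cortex. Red marks an adjusted p under 0.05 and the dotted lines the fold bound of 0.5 on the log2 scale. Elovl6 in KO cerebellum (-0.41) and Elovl2, Elovl5, Elovl6 and Elovl7 between the regions (0.43 to 1.57) are red.

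The enzymes that work beside the elongases were taken from 7 lists with 63 genes. In KO cerebellum 59 of them were tested and none was called, with 38 at a positive log2 fold change (64.4%, against 50.2% of all genes). At the adjusted p alone 4 passed (6.78%, against 2.14% of all genes), and these were named after their values were seen where the naming rule had not. Acsl3, which activates long chain fatty acids on the endoplasmic reticulum and lipid droplets, was at 174 CPM ± 10.1 in controls and 239 CPM ± 13.1 in KO mice (log2 fold change 0.45, edgeR adjusted p = 0.0166). Slc27a1, a fatty acid transport protein, was at 114 CPM ± 5.21 and 144 CPM ± 2.21 (0.32, edgeR adjusted p = 0.0368). Fads2, the desaturase that opens the polyunsaturated pathway, was at 82.2 CPM ± 1.92 and 108 CPM ± 12.5 (0.39, edgeR adjusted p = 0.0461), and Scd3, a stearoyl-CoA desaturase, at 30.7 CPM ± 1.28 and 22.0 CPM ± 1.90 (-0.49, edgeR adjusted p = 0.0448).

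In the lists with no gene past the adjusted p, the gene with the smallest p was Hacd2, a dehydratase of the elongation cycle (log2 fold change 0.30, edgeR adjusted p = 0.154), Acacb, which makes malonyl-CoA at mitochondria (0.66, 0.114), the ceramide synthase Cers5 (-0.21, 0.262), the peroxisomal thiolase Acaa1a (0.19, 0.270) and Srebf1, a regulator of lipogenic genes (0.39, 0.107). The 6 tested elongation cycle partners had a median of -0.07, with 2 of them positive, and the 8 tested acyl-CoA synthetases and transporters a median of 0.11, with 7 positive. The median over all genes tested was 0.00.

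In KO cortex none of 60 tested list genes was called and 36 were positive. The gene with the smallest p in its list was Acsl3 (log2 fold change 0.26, edgeR adjusted p = 0.796) or Fads2 (0.26, 0.796). In other lists it was Ppara, a nuclear receptor for fatty acids (0.57, 0.861), the fatty acid hydroxylase Fa2h (-0.46, 0.880) or Hacd4 (-0.23, 0.886). The same held for the malonyl-CoA decarboxylase Mlycd (-0.21, 0.886) and the peroxisomal transporter Abcd2 (0.11, 0.894). Some genes not named by this rule had a smaller p than several of these, among them Slc27a1 (0.29, edgeR adjusted p = 0.797). Acsl3 was at 219 CPM ± 9.59 in controls and 259 CPM ± 5.21 in KO mice, and Fads2 at 123 CPM ± 9.06 and 146 CPM ± 0.487. The median of the acyl-CoA synthetases and transporters was 0.23, with 7 of 8 positive.

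Between the control regions 21 of 59 list genes were called (35.6%, against 40.5% of all genes), 6 higher and 15 lower in cerebellum. Among the desaturases Fads6 (log2 difference 1.99) and Scd3 (2.31) were higher and Degs2 (-0.92) and Fads2 (-0.59) lower in cerebellum, with edgeR adjusted p-values of at most 0.000277. The dehydratases Hacd2 (-0.57) and Hacd4 (-0.83), the fatty acid synthase gene Fasn (-0.63), the citrate carrier Slc25a1 (-0.51) and the ceramide synthase Cers1 (-1.01) were lower, while Acacb (1.65) was higher. Among the acyl-CoA synthetases Acsbg1 (1.05) was higher and Acsl5 (-2.61) and Acsl4 (-0.87) lower. Of the peroxisomal genes Abcd3 (0.57) was higher and Slc27a2 (-0.70) lower. The regulators included Nr1h3, which encodes a liver X receptor (2.50), and in the other direction Srebf2 (-1.23) and Rxra (-0.67). The 6 elongases had a median of 0.57, against 0.02 over all genes and -0.38 to 0.13 for the 7 lists.

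**Figure D5:**
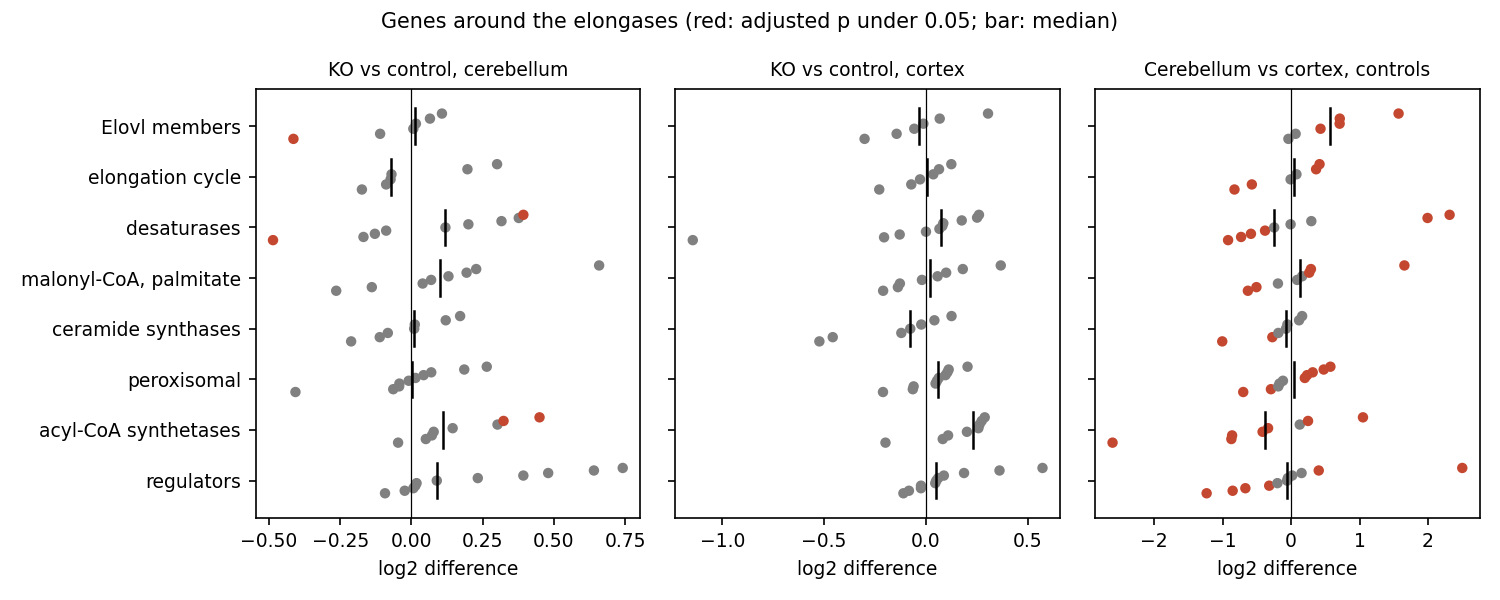
Log2 differences of the tested genes of the Elovl family and of 7 lists of related enzymes and regulators in 3 comparisons. Each point is a gene, red marks an adjusted p under 0.05 by edgeR, and the black bar is the median of the list. In KO cerebellum 5 points are red, in KO cortex none, and between the regions the Elovl median of 0.57 lies to the right of those of the lists.

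In the genome (GRCm38) the members lie on chromosomes 3, 4, 9 and 13. Elovl4 (chr9:83778692-83806277, minus strand) and Elovl5 (chr9:77917364-77984519, plus strand) are on the chromosome of Snx14 (chr9:88376750-88438958), at 4.57 and 10.39 Mb from it, and neither passed the test in KO mice. Elovl6 is at chr3:129532355-129638495 (plus strand), Elovl1 at chr4:118428093-118432953 (plus strand), Elovl2 at chr13:41182381-41220405 (minus strand) and Elovl7 at chr13:108214404-108285683 (plus strand). Counting ignored strand and credited a pair to each gene it overlapped. Shared exon bases were 1.94% for Elovl1, with Cdc20, 0.529% for Elovl6, with Gm35986, and 0% for the other 4 members.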

How the data were processed

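Deposited were unnormalized gene-level counts, separately for each library, which the authors made from strand-specific mRNA libraries with STAR on GRCm38 and featureCounts 2.0.1, without strand and with overlapping genes counted for each. The version of DESeq2 named in the submitters' processing notes is 1.38.3. Of 81881 entries, 26345 without a mouse gene identifier (0.160% to 0.926% of counts) were left out. Groups came from the labels.

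Testing of these counts used edgeR 4.0.16 (R 4.3.3, quasi-likelihood fit, filterByExpr with a count minimum of 10, TMM), KO against control within each region, cerebellum against cortex in controls, and the interaction over 10 libraries. The members and lists were chosen with earlier results of these data known. Named list genes are, per list, the called genes or, with none, the gene with the smallest p, and up to 2 called genes per direction between regions. Alternatives were DESeq2 1.42.0 and its size factors, no filter, 1 common fit, a block and each library left out. The fits were checked on simulated counts. Likeness is Pearson's r of log2 CPM (prior count 2) over genes of at least 5 CPM. Promoter sequences are from RefSeq. The mouse pairs the 2 regions, and the deviations of its 2 libraries from their group means correlated positively (r = 0.248 to 0.479 over 17431 genes). With 2 KO mice these deviations mirror each other, so KO 1 and KO 2 necessarily share the same value (r = 0.366). The main fits did not use this pairing, which entered only as an alternative block. The members had 160 to 2571 counts per library.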

Additional observations from a re-analysis of the deposited data

How the results depend on the processing

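No Elovl gene was called in KO against control cerebellum or cortex, or in the interaction, under any alternative, and 2 or 3 were called between the regions, where Elovl7 was lost in 4 of the 6 analyses that left out 1 library. Counts over all genes moved more. In cerebellum 302 became 842 without the filter, 181 with the replicate number as a block, and 133 to 400 with 1 library left out (133 without control 1, 179 without control 3, 180 without KO 1). In cortex 0 became 380 without the filter, 49 with DESeq2, 3 with the block, and 0 to 98 with 1 library left out (98 without control 2, 7 without KO 2). In the interaction 21 became 599 without the filter, 219 with DESeq2, 128 with the mouse as block, and 3 to 117 with 1 library left out (117 without the cortex of control 2, 3 without that of KO 2). The cause was not tested. In KO against control the replicate number is shared by different mice, so that block does not pair them, and with it Elovl6 in cerebellum had a log2 fold change of -0.45 and an adjusted p of 0.0970 by edgeR. With the mouse as block the 3 calls between the regions were the same genes, with 8175 against 7871 genes called over all. With 2 KO mice per region the spread within that group rests on a single difference.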
